A study of Mus musculus with 12 samples.

Results

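The 33 genes described here encode the enzymes that build cholesterol and fatty acids, the proteins that regulate them and 2 carriers of sterols. They were listed by gene symbol, with earlier results of these data known, and all 33 were found among the 23282 rows of each count table. RNA of C22 cells, a mouse club (Clara) cell line kept as a single immortalised clone derived from H-2Kb-tsA58 transgenic mice, was profiled in 12 libraries by QuantSeq, which reads the 3′ end of each mRNA. C22 cells proliferate at a permissive temperature with interferon-γ and differentiate at a higher temperature without it, and differentiated cells were used. The 4 groups of 3 libraries each were negative control cells (NC), NC cells exposed for 24 h to TGF-β1 at 20 ng/ml (NC + TGF-β1), cells in which Pdcd5 was knocked down by siRNA, labelled siPDCD5 (siPdcd5), and knockdown cells given the same TGF-β1 treatment (siPdcd5 + TGF-β1). Serum was withdrawn for 2 h before TGF-β1 was added, no source says whether untreated cells were starved too, and so the effects of starvation and TGF-β1 cannot be told apart. The comparisons asked how TGF-β1, a cytokine that drives fibrosis, and PDCD5, a protein linked to apoptosis, each altered expression, and whether knockdown altered the response to TGF-β1.

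Cholesterol is built from acetyl-CoA. The mevalonate enzymes make farnesyl diphosphate, squalene enzymes join and close it into lanosterol, and the later sterol enzymes strip methyl groups from lanosterol and move its double bonds. Fatty acids are built from the same acetyl-CoA by ACLY, ACACA and FASN, and are then lengthened and desaturated. Transcription of both branches is driven by the SREBP factors, encoded by Srebf1 and Srebf2, which SCAP escorts from the endoplasmic reticulum to the Golgi for cleavage when sterols are scarce and which INSIG proteins hold back when sterols are plentiful. In the lung, lipid synthesis is best known from the alveolar type 2 cell, which makes surfactant.

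Levels are given as CPM, read counts scaled to a common library size after TMM adjustment. Changes are log2 fold changes with their standard error (SE) from an edgeR quasi-likelihood fit over the 12425 genes with enough counts, and a gene passed when its Benjamini-Hochberg adjusted p over all of these genes was under 0.05. Total counts ran from 12809857 to 17714828 per library, and the 33 members, each of which entered the test, were counted between 48 and 16691 times. Nothing in the labels says that the libraries of a group came from separate cultures, so p-values measure only the spread between these libraries. Pdcd5 stood at 65.1 to 73.5 CPM in the 6 NC libraries with or without TGF-β1 and at 19.9 to 26.3 CPM in the 6 siPdcd5 libraries (log2 fold change −1.69 without and −1.49 with TGF-β1). The club cell markers Scgb3a2 and Cyp2f2 had 0 counts in every library and Scgb1a1 at most 1, whereas Foxa2 and Aldh1a1 of the same list were expressed. Replicate 2 of NC + TGF-β1 and replicate 1 of siPdcd5 stood apart from their group, with a chi-square per gene of 26.8 to 62.7 against the other libraries of the group, where the remaining pairs gave 4.40 to 12.1. Results that move without them are given below with that value.

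TGF-β1 raised a run of late cholesterol enzymes in NC cells. Of the 33 members 8 rose and 1 fell, where 8.57% of all tested genes rose and 6.77% fell. The risers were Fdps, Cyp51, Msmo1, Nsdhl, Hsd17b7, Ebp and Sc5d of cholesterol synthesis and the desaturase gene Scd2, and Insig2 fell. The median log2 fold change was 0.17 over the members and 0.005 over all tested genes, 21 of 33 members had a positive value, and the largest rise was 1.68-fold, for Scd2, a rank it lost to Mvd without replicate 2 of NC + TGF-β1. In siPdcd5 cells 10 members rose and 0 fell, where 8.50% of all tested genes rose and 7.61% fell, with a median of 0.24 against −0.03. At an unadjusted p under 0.05 Abca1 was lower there, which DESeq2 called too and limma did not. All 8 genes that rose in NC cells were among these 10, and Hmgcs1 and Sqle made up the rest.

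Without replicate 2 of NC + TGF-β1, 14 members passed in NC cells. Of these 12 were higher and 2 lower, and 8 were among the 9 above. In that fit Pmvk, Mvd, Dhcr7, Fasn and Acaca were higher and Abca1 lower in addition, and Hsd17b7 missed (adjusted p = 0.0992). The same fit gave 15 members in siPdcd5 cells, with Pmvk, Acat2, Fasn and Scd1 higher and Abca1 lower in addition. Without replicate 1 of siPdcd5, 8 passed in NC and 10 in siPdcd5 cells.

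**Figure D1:**
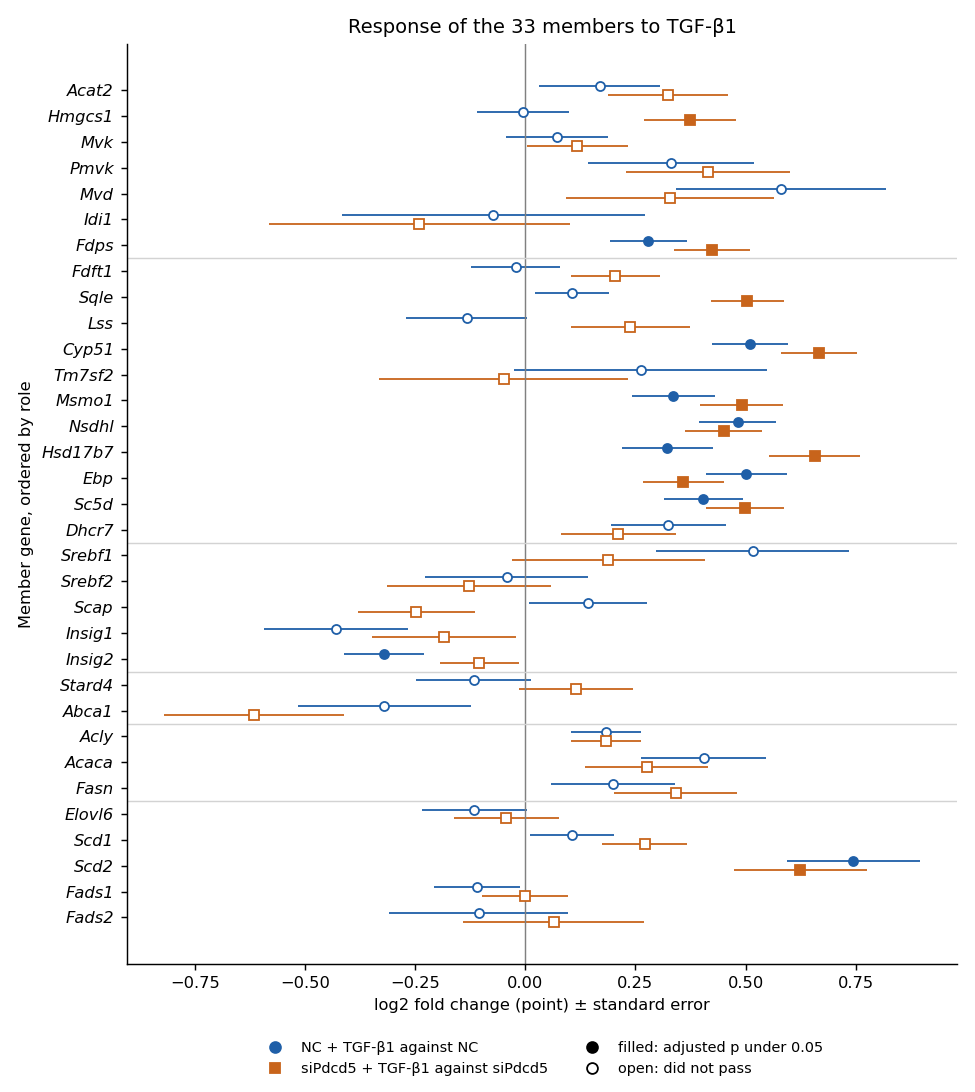
Log2 fold change after TGF-β1 (x axis, point ± standard error) of the 33 members (y axis, grouped by role with lines between roles) in NC cells (circles) and siPdcd5 cells (squares), filled where the adjusted p was under 0.05. The filled points lie right of 0 from Hmgcs1 to Sc5d and at Scd2, the exception being Insig2 in NC cells at −0.32.

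Among the 7 mevalonate enzymes, the last one, Fdps, passed in both backgrounds, in NC cells narrowly. Fdps encodes farnesyl diphosphate synthase (chr3:89093588-89101959, minus strand) and measured 111, 113 and 102 CPM in NC, 134, 122 and 139.7 in NC + TGF-β1, 107, 98.5 and 94.6 in siPdcd5 and 132, 137 and 133 in siPdcd5 + TGF-β1. The treated and untreated libraries did not overlap in either background, with a rise of 1.21-fold in NC (log2 fold change 0.28, SE 0.09, edgeR adjusted p = 0.0418) and 1.34-fold in siPdcd5 cells (log2 fold change 0.42, SE 0.09, edgeR adjusted p = 0.00339). The call in NC cells was lost in 15 of 19 alternative settings, with an adjusted p of up to 0.182. Hmgcs1 encodes cytosolic HMG-CoA synthase (chr13:119690379-119708260, plus strand), which feeds the pathway, and stood at 264, 257 and 243 CPM in NC, 249.6, 275 and 236 in NC + TGF-β1, 240.2, 187 and 187 in siPdcd5 and 276, 255 and 264 in siPdcd5 + TGF-β1. The NC libraries with and without TGF-β1 overlapped (log2 fold change −0.00, SE 0.10, edgeR adjusted p = 0.986), and the siPdcd5 libraries did not (log2 fold change 0.37, SE 0.10, edgeR adjusted p = 0.024), although 5 of 19 alternative settings lost that call. Acat2, the thiolase ahead of Hmgcs1, had log2 values of 0.17 in NC and 0.32 in siPdcd5 cells and passed in neither (adjusted p = 0.482 and 0.13). The kinase genes Mvk (0.07 in NC and 0.12 in siPdcd5 cells) and Pmvk (0.33 and 0.41), the decarboxylase gene Mvd (0.58 and 0.33) and the isomerase gene Idi1 (−0.07 and −0.24) did not pass either. Mvd had uneven libraries, at 127, 83.3 and 199 CPM in NC + TGF-β1, and Idi1 the largest SE of the 33 members (0.34 in NC cells) at 5.71 to 18.3 CPM over the 12 libraries.

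Most of the members that rose were squalene and sterol enzymes, with 6 of 11 higher in NC and 7 of 11 in siPdcd5 cells. Of all tested genes 8.57% and 8.50% rose. Cyp51, which starts the removal of methyl groups from lanosterol (chr5:4081145-4104746, minus strand), rose from 376, 319.6 and 328 CPM in NC to 495, 479 and 484 in NC + TGF-β1 and from 304, 276 and 314 in siPdcd5 to 459.9, 471 and 486 in siPdcd5 + TGF-β1. Every treated library lay above every untreated one, by 1.42-fold in NC (log2 fold change 0.51, SE 0.09, edgeR adjusted p = 7.5e-04) and 1.59-fold in siPdcd5 cells (log2 fold change 0.67, SE 0.09, edgeR adjusted p = 7.9e-05). The next enzymes of demethylation moved with it. Msmo1, the methylsterol monooxygenase (chr8:64718139-64733792, minus strand), measured 331, 263 and 270.0 CPM in NC, 365, 379 and 347 in NC + TGF-β1, 272, 249 and 262 in siPdcd5 and 362, 359.8 and 378 in siPdcd5 + TGF-β1. Its groups did not overlap, although replicate 1 of NC lay close to the treated libraries (log2 fold change 0.34, SE 0.09, edgeR adjusted p = 0.0249 in NC; log2 fold change 0.49, SE 0.09, edgeR adjusted p = 0.00212 in siPdcd5 cells).

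Nsdhl, the sterol dehydrogenase of the same steps (chrX:72918557-72958514, plus strand), gave 75.2, 70.6 and 69.4 CPM in NC and 100.4, 92.9 and 107 in NC + TGF-β1, and 80.9, 87.8 and 81.1 in siPdcd5 and 121, 107 and 113 in siPdcd5 + TGF-β1. The gain was near equal in the 2 backgrounds, 1.4-fold (log2 fold change 0.48, SE 0.09, edgeR adjusted p = 0.00142) and 1.37-fold (log2 fold change 0.45, SE 0.09, edgeR adjusted p = 0.0023), and no library crossed. Hsd17b7, which reduces the keto group left by NSDHL (chr1:169949535-169969241, minus strand), had 53.4, 49.4 and 46.0 CPM in NC, 58.5, 66.6 and 60.9 in NC + TGF-β1, 40.3, 35.6 and 40.3 in siPdcd5 and 67.7, 56.8 and 58.6 in siPdcd5 + TGF-β1. In NC cells it passed narrowly (log2 fold change 0.32, SE 0.10, edgeR adjusted p = 0.0484), and 15 of 19 alternative settings lost that call. In siPdcd5 cells it rose 1.58-fold (log2 fold change 0.66, SE 0.10, edgeR adjusted p = 4.4e-04) and passed under all 19.

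Ebp encodes the isomerase that shifts the double bond of the sterol ring (chrX:8185329-8193512, minus strand). It measured 196, 187 and 187 CPM in NC, 273, 253 and 280.2 in NC + TGF-β1, 236, 187 and 219 in siPdcd5 and 267, 268 and 287 in siPdcd5 + TGF-β1, so that the treated libraries again lay above all untreated ones (log2 fold change 0.50, SE 0.09, edgeR adjusted p = 0.00148 in NC; log2 fold change 0.36, SE 0.09, edgeR adjusted p = 0.0151 in siPdcd5 cells). Sc5d, the sterol desaturase that follows (chr9:42251595-42264256, minus strand), had 106, 108 and 104 CPM in NC, 142, 139 and 140.1 in NC + TGF-β1, 81.7, 97.9 and 82.3 in siPdcd5 and 129, 115 and 126 in siPdcd5 + TGF-β1. The libraries of each NC group lay close together, and the log2 values were 0.40 (SE 0.09, edgeR adjusted p = 0.00549) and 0.50 (SE 0.09, edgeR adjusted p = 0.0012). Sqle, squalene epoxidase and a rate-controlling step of the pathway (chr15:59315077-59331192, plus strand), stood at 157, 132 and 134 CPM in NC, 149.7, 150.1 and 155 in NC + TGF-β1, 114, 113 and 111 in siPdcd5 and 155, 159 and 166 in siPdcd5 + TGF-β1. In NC cells the groups overlapped through replicate 1 of NC (log2 fold change 0.11, SE 0.08, edgeR adjusted p = 0.468), whereas the siPdcd5 groups were far apart (log2 fold change 0.50, SE 0.08, edgeR adjusted p = 6.9e-04). Of the remaining 4, the squalene synthase gene Fdft1 and the lanosterol synthase gene Lss had negative values in NC cells (−0.02 and −0.13) and positive ones in siPdcd5 cells (0.20 and 0.24), without passing. Dhcr7, which makes cholesterol from its dehydro precursor, lay higher in all 3 treated NC libraries without passing (log2 fold change 0.32, SE 0.13, edgeR adjusted p = 0.119) and had a log2 value of 0.21 in siPdcd5 cells. The sterol reductase gene Tm7sf2 stayed between 3.65 and 9.19 CPM in the 12 libraries, with log2 values of 0.26 and −0.05.

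**Figure D2:**
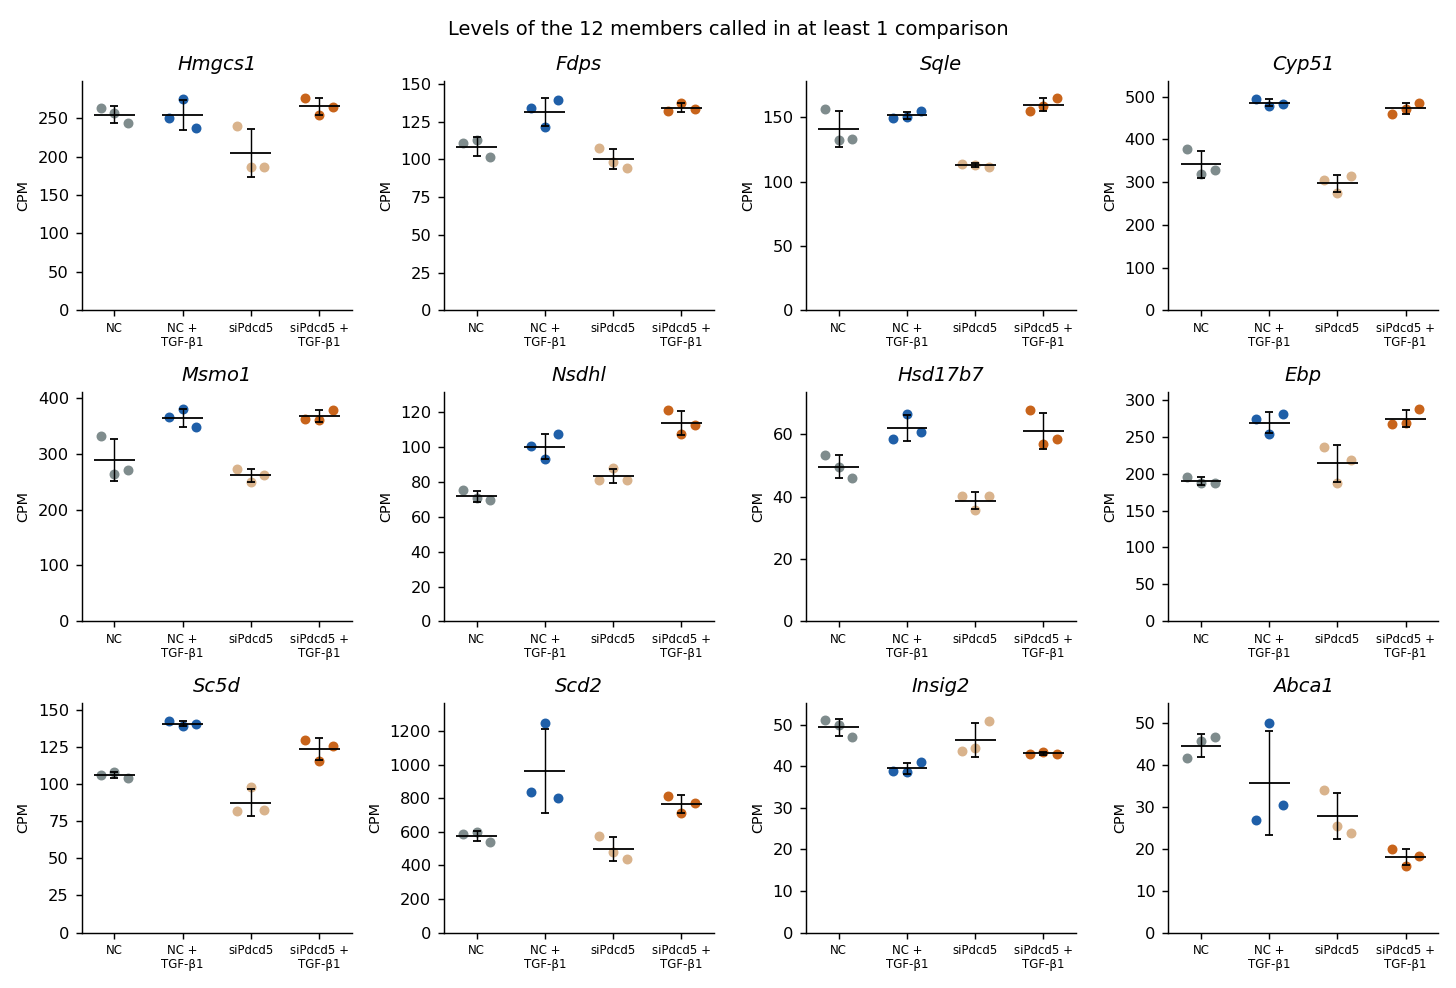
CPM in each library (y axis, linear from 0) of the 12 members that passed in at least 1 comparison, in the 4 groups (x axis), with the group mean (line) and SD (bars, n = 3). In every panel but those of Insig2 and Abca1 the siPdcd5 + TGF-β1 points sit above the siPdcd5 points, Abca1 is lowest in siPdcd5 + TGF-β1, and the high point of Scd2 in NC + TGF-β1 is replicate 2.

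Summed over the 18 mevalonate and sterol enzymes, the level was 1994 to 2236 CPM in NC, 2469.6 to 2668 in NC + TGF-β1, 1890.2 to 2001 in siPdcd5 and 2611 to 2676 in siPdcd5 + TGF-β1. The treated libraries lay above the untreated ones in both backgrounds. Relative to untreated NC, the mean was 1.24 times in NC + TGF-β1, 0.940 times in siPdcd5 and 1.27 times in siPdcd5 + TGF-β1. Within siPdcd5 cells the mean went from 1958 CPM without to 2648 CPM with TGF-β1. The sum gives more weight to genes with many reads, such as Cyp51 and Msmo1, and is not an even account of the 18 genes. Gene by gene, the median log2 fold change of the 18 was 0.30 in NC and 0.37 in siPdcd5 cells.

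Of the 8 fatty acid enzymes 1 rose in each background, where 8.57% and 8.50% of all tested genes rose, and the branches were not tested against each other. That gene was Scd2, one of the stearoyl-CoA desaturases (chr19:44293674-44306864, plus strand), which put the first double bond into saturated fatty acids. Scd2 measured 584, 597 and 540.1 CPM in NC, 835, 1247 and 802 in NC + TGF-β1, 574, 480.3 and 437 in siPdcd5 and 815, 710.0 and 774 in siPdcd5 + TGF-β1. It rose 1.68-fold in NC cells (log2 fold change 0.74, SE 0.15, edgeR adjusted p = 0.00306), or by 0.51 on the log2 scale without replicate 2 of NC + TGF-β1, and it rose 1.54-fold in siPdcd5 cells (log2 fold change 0.62, SE 0.15, edgeR adjusted p = 0.0102). Its paralog Scd1 had log2 values of 0.11 and 0.27 (adjusted p = 0.538 and 0.0728). Acly, Acaca and Fasn, which make cytosolic acetyl-CoA, malonyl-CoA and palmitate, had positive values in both backgrounds, from 0.18 to 0.41 in NC and from 0.18 to 0.34 in siPdcd5 cells, and none passed, with an adjusted p of 0.0721 for Acaca in NC cells as the smallest. Without replicate 2 of NC + TGF-β1, Fasn and Acaca passed in NC cells (edgeR adjusted p = 0.0380 and 0.0229). In that fit Fasn and Scd1 passed in siPdcd5 cells (edgeR adjusted p = 0.0240 and 0.0215). The elongase gene Elovl6 and the polyunsaturated fatty acid desaturase genes Fads1 and Fads2 had values between −0.12 and 0.06 over both backgrounds. The summed level of the 8 enzymes was 1655 to 1769.8 CPM in NC, 2017 to 2348 in NC + TGF-β1, 1451 to 1585 in siPdcd5 and 1907 to 1929 in siPdcd5 + TGF-β1, a sum that leans on the many reads of Scd2 and Fads1. Relative to untreated NC, the mean was 1.25 times in NC + TGF-β1, 0.892 times in siPdcd5 and 1.13 times in siPdcd5 + TGF-β1. Within siPdcd5 cells the mean went from 1517 CPM without to 1919 CPM with TGF-β1.

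**Figure D3:**
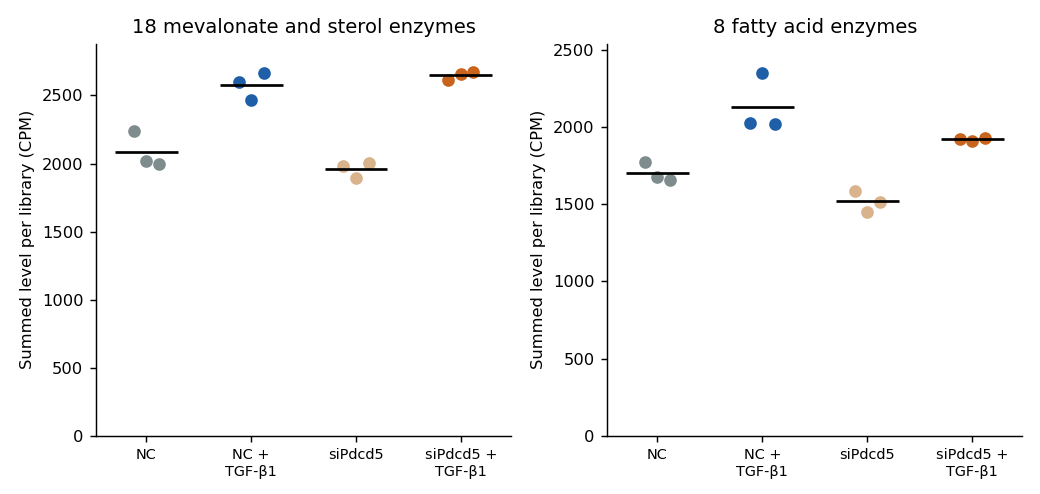
Summed CPM per library (y axis, from 0) of the 18 mevalonate and sterol enzymes (left) and the 8 fatty acid enzymes (right) in the 4 groups (x axis), with the group mean as a line (n = 3). TGF-β1-treated libraries lie above untreated ones in both panels, and the highest point on the right, 2348, is replicate 2 of NC + TGF-β1.

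Of the 5 regulators only Insig2 passed. Insig2, one of the anchors that hold SCAP in the endoplasmic reticulum (chr1:121304353-121332589, minus strand), fell from 51.0, 49.9 and 47.1 CPM in NC to 38.8, 38.6 and 41.1 in NC + TGF-β1, with no overlap (log2 fold change −0.32, SE 0.09, edgeR adjusted p = 0.0266). In siPdcd5 cells it measured 43.6, 44.5 and 50.9 CPM without and 42.9, 43.5 and 42.9 with TGF-β1 (log2 fold change −0.10, SE 0.09, edgeR adjusted p = 0.487), and the difference between the 2 responses did not pass (log2 difference 0.22, 95% interval −0.06 to 0.49, adjusted p = 0.954). Insig1, itself a well known SREBP target, had a lower mean after TGF-β1 in both backgrounds, −0.43 (SE 0.16, edgeR adjusted p = 0.102) and −0.18 (SE 0.16, edgeR adjusted p = 0.5). Srebf1 gave 48.5, 101 and 53.9 CPM in NC + TGF-β1 against 44.7, 48.8 and 48.6 in NC, where the highest library is again replicate 2 (log2 fold change 0.52, SE 0.22, edgeR adjusted p = 0.14). Srebf2 and Scap had log2 values of −0.04 and 0.14 in NC and −0.13 and −0.25 in siPdcd5 cells, and neither passed. Stard4, a cytosolic sterol carrier, had −0.12 and 0.11.

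The 2 responses to TGF-β1 rest on separate libraries, with a common estimate of the spread. Over the 33 members 26 had the same sign in both, with a Pearson r of 0.72 and a Spearman rho of 0.69 between the log2 fold changes, given as a description across genes, which are not independent replicates. The difference between the 2 responses passed for 0 members in edgeR, DESeq2 and limma, and for 0.00% of all tested genes in edgeR (DESeq2 called 12 genes higher and 3 lower, limma 0). At an unadjusted p under 0.05 it named 3 of 33 members (9.09%), against 5.13% of all tested genes, all 3 with a stronger rise in siPdcd5 cells. These were Sqle (log2 difference 0.40, 95% interval 0.14 to 0.65, adjusted p = 0.806), Hmgcs1 (0.38, interval 0.06 to 0.69, adjusted p = 0.951) and Hsd17b7 (0.33, interval 0.02 to 0.65, adjusted p = 0.951). A different response of Sqle and Hmgcs1 in the 2 backgrounds was thus not shown.

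Knockdown of Pdcd5 on its own moved no member past the threshold. Of the 33, 0 passed in edgeR, where 0.901% of all tested genes were higher and 2.54% lower, and 10 had an unadjusted p under 0.05, 2 of them higher and 8 lower (15.7% of all tested genes had such a p). DESeq2 called 4 members, Sqle, Hsd17b7, Sc5d and Abca1, all lower, and limma called 0. Without replicate 2 of NC + TGF-β1, Sqle, Hsd17b7 and Abca1 passed as lower (edgeR adjusted p = 0.0296, 0.0464 and 0.00375). Without replicate 1 of siPdcd5, Hmgcs1 and Abca1 did (edgeR adjusted p = 0.0188 and 0.0439). The median log2 fold change was −0.09 over the members and 0.02 over all tested genes. Sqle, whose values per library are given above, was lower in all 3 siPdcd5 libraries than in any NC library (log2 fold change −0.32, SE 0.08, edgeR adjusted p = 0.0516), and so were Hsd17b7 (log2 fold change −0.36, SE 0.10, edgeR adjusted p = 0.0856), Sc5d (log2 fold change −0.28, SE 0.09, edgeR adjusted p = 0.115) and Hmgcs1 (log2 fold change −0.32, SE 0.10, edgeR adjusted p = 0.133). The 5 elongation and desaturation enzymes all had negative values, from −0.42 for Fads2 to −0.19 for Elovl6, and the 3 fatty acid synthesis enzymes all had positive ones, from 0.05 for Fasn to 0.21 for Acaca, none of them past the threshold. Nsdhl (0.22) and Scap (0.31) were higher in every siPdcd5 library than in NC, with adjusted p of 0.241 and 0.277.

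In TGF-β1-treated cells knockdown lowered 1 of the 33 members, Abca1, where 0.330% of all tested genes were higher and 1.22% lower. ABCA1 loads cellular cholesterol onto apolipoproteins outside the cell and is a classical target of the sterol-sensing LXR receptors (chr4:53030787-53159895, minus strand). It stood at 41.5, 45.6 and 46.5 CPM in NC, 26.8, 49.8 and 30.3 in NC + TGF-β1, 33.9, 25.4 and 23.8 in siPdcd5 and 19.9, 16.0 and 18.3 in siPdcd5 + TGF-β1. Each siPdcd5 + TGF-β1 library lay below every other library of the series, and the level was 0.506 times that of NC + TGF-β1 (log2 fold change −0.98, SE 0.20, edgeR adjusted p = 0.0283). Without replicate 2 of NC + TGF-β1, the high one, the value was −0.66 (adjusted p = 0.0250). The call held in 13 of 19 alternative settings and was lost, among others, when any one siPdcd5 + TGF-β1 library was left out. Without TGF-β1 the siPdcd5 libraries also lay below NC (log2 fold change −0.69, SE 0.20, edgeR adjusted p = 0.0817), and the siPdcd5 + TGF-β1 libraries lay below those of siPdcd5, both short of the threshold (log2 fold change −0.62, SE 0.20, edgeR adjusted p = 0.0541). Both passed without replicate 2 of NC + TGF-β1 (edgeR adjusted p = 0.00375 and 0.00295). The first also passed without replicate 1 of siPdcd5 (log2 fold change −0.86, edgeR adjusted p = 0.0439). The median of the members was 0.01, against −0.02 over all tested genes. Among the sterol enzymes that rose, Cyp51 differed by −0.04 (95% interval −0.22 to 0.14), Msmo1 by 0.01 (−0.19 to 0.21) and Ebp by 0.03 (−0.17 to 0.22) between siPdcd5 + TGF-β1 and NC + TGF-β1. Lss had the highest value of the members, 0.37 (SE 0.14, edgeR adjusted p = 0.22).

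**Figure D4:**
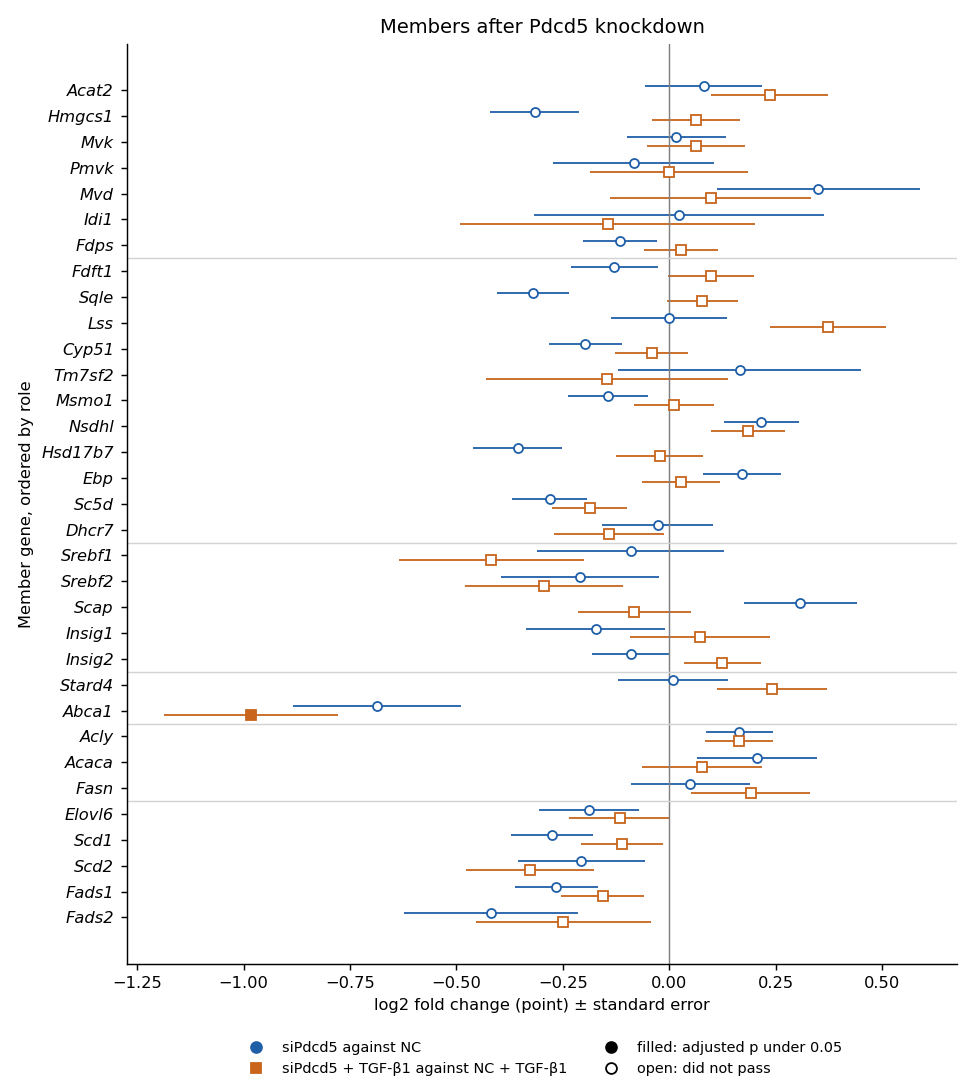
Log2 fold change after Pdcd5 knockdown (x axis, point ± standard error) of the 33 members (y axis, grouped by role) without TGF-β1 (circles) and with TGF-β1 (squares), filled where the adjusted p was under 0.05. The 1 filled point is Abca1 with TGF-β1 at −0.98, and circles for Hmgcs1, Sqle, Hsd17b7 and Sc5d lie left of 0 without passing.

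Promoters of the members that rose after TGF-β1 are shown because SREBP acts at sterol regulatory elements with NF-Y as its usual partner. RefSeq windows on GRCm38.p6, from 250 bases before to 50 after the start site, matched 26 of the 33 members by symbol, 7 of them among the 10 that rose. The windows were searched on both strands for CCAAT, the NF-Y box, which reads ATTGG on the other strand, for TCACNCCAC, a sterol regulatory element, and for CACGTG, the E-box that SREBP-1 can also bind. The stretches below are the parts of these windows within 200 bases before the start site and free of annotated exons, 5′ to 3′ on the strand of the gene, with matches in capitals.
Hmgcs1 (chr13:119690151-119690350, plus strand): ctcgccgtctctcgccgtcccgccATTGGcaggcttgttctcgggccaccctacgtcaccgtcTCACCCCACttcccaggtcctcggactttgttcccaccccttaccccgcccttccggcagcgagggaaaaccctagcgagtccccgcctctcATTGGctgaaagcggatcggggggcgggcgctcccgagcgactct
Cyp51 (chr5:4104747-4104897, minus strand): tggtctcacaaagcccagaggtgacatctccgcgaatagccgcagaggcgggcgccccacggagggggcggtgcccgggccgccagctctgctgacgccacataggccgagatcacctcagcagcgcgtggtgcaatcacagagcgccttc
Nsdhl (chrX:72918412-72918520, plus strand): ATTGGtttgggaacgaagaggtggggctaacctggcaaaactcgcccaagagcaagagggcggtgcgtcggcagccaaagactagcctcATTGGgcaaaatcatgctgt
Hsd17b7 (chr1:169969242-169969405, minus strand): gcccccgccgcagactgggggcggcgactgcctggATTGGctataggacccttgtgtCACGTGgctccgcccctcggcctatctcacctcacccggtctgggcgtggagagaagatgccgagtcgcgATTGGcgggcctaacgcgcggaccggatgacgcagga
Ebp (chrX:8193513-8193712, minus strand): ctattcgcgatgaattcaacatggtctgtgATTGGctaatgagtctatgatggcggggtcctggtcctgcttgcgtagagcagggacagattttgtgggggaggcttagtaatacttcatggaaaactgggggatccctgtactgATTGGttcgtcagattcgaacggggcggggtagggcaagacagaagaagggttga
Sc5d (chr9:42264301-42264500, minus strand): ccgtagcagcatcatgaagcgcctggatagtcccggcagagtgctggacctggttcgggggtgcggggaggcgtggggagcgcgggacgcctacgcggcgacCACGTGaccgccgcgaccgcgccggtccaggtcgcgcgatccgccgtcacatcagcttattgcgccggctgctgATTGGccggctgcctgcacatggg
Hmgcs1 holds 2 NF-Y boxes in this stretch on either side of TCACCCCAC, the only match to the sterol regulatory element among the 26 members (3.85%, against 1.44% of all genes with a window). The Cyp51 stretch holds 0 matches, and the NF-Y box of its window lies outside it. Nsdhl and Ebp each show a pair of NF-Y boxes, Hsd17b7 a pair and an E-box, and Sc5d 1 of each.

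An NF-Y box was present in the windows of 20 of 26 members (76.9%), against 41.1% of all genes. It was found in 7 of 7 members that rose (Hmgcs1, Cyp51, Msmo1, Nsdhl, Hsd17b7, Ebp and Sc5d) and in 13 of 19 others (68.4%), so the box is common to the members whether or not they rose. E-boxes were found in 6 of 26 members (23.1%) and 8.09% of all genes. In 1 case, in Fasn, 2 matches overlapped. A match is a run of letters and not a measured binding site.

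**Figure D5:**
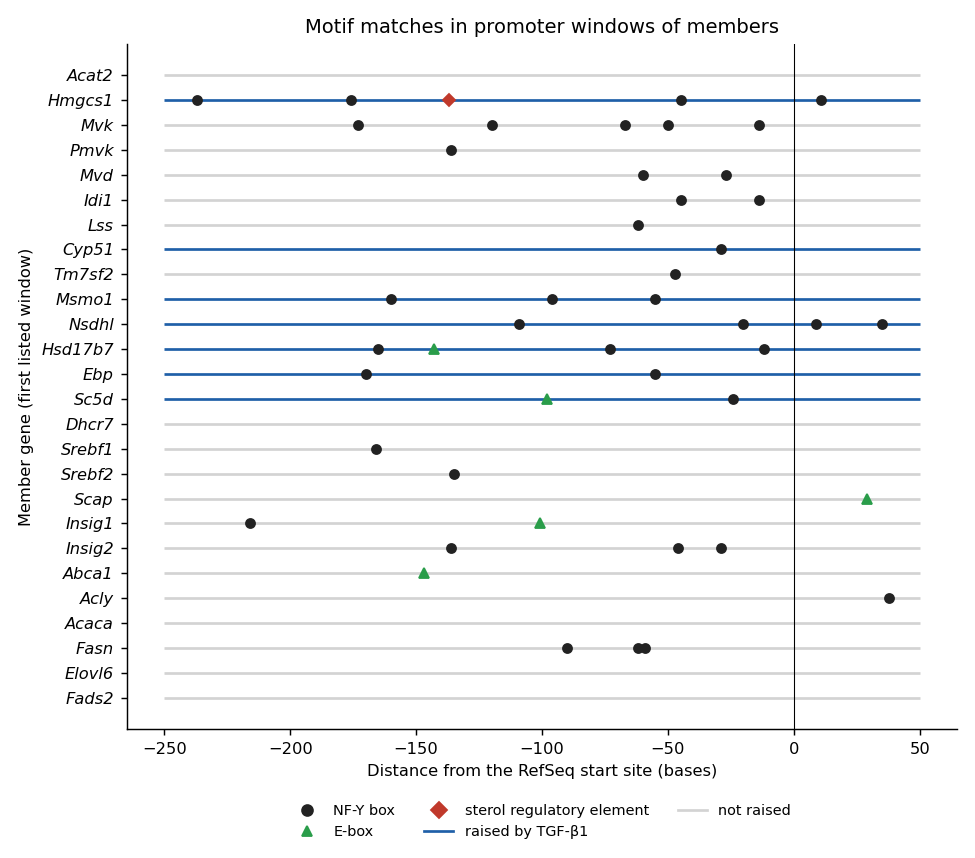
Matches to the NF-Y box (circles), sterol regulatory element (diamond) and E-box (triangles) along the promoter windows of 26 members (y axis), by distance from the RefSeq start site in bases (x axis), with 1 window drawn per gene. Blue lines mark the 7 members that rose after TGF-β1 in NC or siPdcd5 cells, and each of these carries at least 1 NF-Y box.

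Neighbouring pathways were read from 61 further genes, of which 58 were tested. Among other genes of the SREBP pathway, Tmem97, a sterol-responsive membrane protein gene, rose in NC (log2 fold change 0.56, SE 0.11, edgeR adjusted p = 0.00181) and by 0.45 on the log2 scale in siPdcd5 cells. Me1, the cytosolic malic enzyme that supplies NADPH, rose in NC cells (log2 fold change 0.49, SE 0.15, edgeR adjusted p = 0.0359). Of 14 other acyl chain enzymes, 3 rose in each background, against 8.57% and 8.50% of all tested genes, and they were the same genes. Acsl3, which activates long-chain fatty acids, went from 164 ± 5.01 to 298 ± 34.5 CPM (mean ± SD, n = 3, here and for the next genes) in NC (log2 fold change 0.86, SE 0.10, edgeR adjusted p = 1.9e-05) and from 164 ± 13.9 to 262 ± 8.99 in siPdcd5 cells (log2 fold change 0.68, SE 0.10, edgeR adjusted p = 1.9e-04). Hacd1, a dehydratase of chain elongation, rose by 0.75 and 0.76, and Fads3 by 0.56 and 0.42, on the log2 scale. Fads3 was also lower after knockdown in TGF-β1-treated cells (log2 fold change −0.52, SE 0.11, edgeR adjusted p = 0.0303). Of the 8 isoprenoid genes 1 passed, Ggps1, which makes geranylgeranyl diphosphate, in siPdcd5 cells (log2 fold change 0.34, SE 0.11, edgeR adjusted p = 0.0472), against 8.50% of all tested genes.

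Mylip, a ubiquitin ligase gene and LXR target, fell from 17.7 ± 1.68 to 11.0 ± 1.94 CPM in NC (log2 fold change −0.69, SE 0.18, edgeR adjusted p = 0.0144) and from 15.9 ± 2.58 to 7.04 ± 1.31 in siPdcd5 cells (log2 fold change −1.17, SE 0.18, edgeR adjusted p = 3.9e-04), 1 of 7 tested genes of LXR and sterol export in each, against 6.77% and 7.61% of all tested genes. Abca2, a sterol transporter gene of that list, was higher after knockdown without TGF-β1 (log2 fold change 0.43, SE 0.10, edgeR adjusted p = 0.0268). Of 13 tested genes of fatty acid oxidation, 3 fell in NC and 4 in siPdcd5 cells, where 6.77% and 7.61% of all tested genes fell. The list median was −0.20 in NC and −0.12 in siPdcd5 cells, against 0.005 and −0.03 over all tested genes. Acadm, the medium-chain acyl-CoA dehydrogenase gene, went from 61.0 ± 7.13 to 32.2 ± 3.44 CPM in NC (log2 fold change −0.92, SE 0.12, edgeR adjusted p = 8.9e-05) and from 44.6 ± 1.12 to 25.1 ± 3.15 in siPdcd5 cells (log2 fold change −0.82, SE 0.12, edgeR adjusted p = 2.6e-04). Acaa2, the thiolase of the last step, fell by 0.72 and 0.62 on the log2 scale. Cpt2 fell in NC cells (log2 fold change −0.34, SE 0.10, edgeR adjusted p = 0.0382), and Etfb (log2 fold change −0.34, SE 0.10, edgeR adjusted p = 0.0358) and Cpt1a (log2 fold change −0.28, SE 0.09, edgeR adjusted p = 0.0417) in siPdcd5 cells.

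Fibroblast, epithelial and club cell markers moved with TGF-β1 as well. The summed level of 5 fibroblast genes was 2738 to 2899.8 CPM in NC and 5924 to 6589 in NC + TGF-β1, and 1853 to 2323 in siPdcd5 and 4524 to 4711 in siPdcd5 + TGF-β1. Col1a1 made up nearly all of it, 3 of these 5 genes passed in at least 1 comparison, and Dcn moved the other way, from 95.7 ± 4.94 to 22.6 ± 1.13 CPM in NC cells. After knockdown Col1a1 was lower (log2 values of −0.47 without and −0.43 with TGF-β1) and Dcn higher (0.59 and 0.88). Col1a2 was higher without TGF-β1 (log2 fold change 1.74, edgeR adjusted p = 6.3e-04) and short of the threshold with it (0.68, edgeR adjusted p = 0.0861). The 6 epithelial genes summed to 673 to 697 CPM in NC and 1239 to 1675 in NC + TGF-β1, and to 546 to 698 in siPdcd5 and 1581 to 1644 in siPdcd5 + TGF-β1, nearly all from Krt8 and Krt18. Cdh1 of this list stood at 1.91 to 4.03 CPM and did not pass (log2 fold change −0.58 in NC and −0.13 in siPdcd5 cells). Epcam, Krt19 and Cldn4 had too few counts to be tested. The 8 club cell genes summed to 715 to 738 CPM in NC and 283 to 294 in NC + TGF-β1, and to 490.4 to 522 in siPdcd5 and 222 to 242 in siPdcd5 + TGF-β1, with Scgb3a2 and Cyp2f2 at 0. Nearly all of this came from Aldh1a1 and Foxa2, which went opposite ways after knockdown. Aldh1a1 was lower, by log2 values of −0.86 without and −0.57 with TGF-β1. Foxa2 had 0.24 without TGF-β1, short of the threshold, and was higher with it (log2 fold change 0.50, edgeR adjusted p = 0.00925). The 4 adipocyte genes reached at most 0.269 CPM in sum and the 4 alveolar type 2 genes at most 0.731. Leukocyte genes summed to 8.29 to 15.2 CPM and endothelial genes to 0.584 to 2.47 CPM over the 12 libraries. The part of the moving markers in the response of the lipid genes was not tested, and in bulk RNA fewer cells of a type and less RNA per cell cannot be told apart.

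Counts of members that overlap another gene carry an uncertainty, since reads with several alignments entered the tables and no source says whether strand was used. By the GENCODE annotation of GRCm38, Cyp51 overlaps Akap9, Fdft1 overlaps Ctsb and Srebf1 overlaps Rai1 on the other strand, an antisense gene lies across Hmgcs1, and Fdps shares its strand with the protein-coding model Gm43738.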

How the data were processed

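QuantSeq 3′ mRNA-seq libraries (Lexogen) of C22 cells, 12 in all, were grouped by their labels. The authors aligned single-end reads with Bowtie2 (build mm10 in the submitters' processing notes), used Bedtools to count reads per gene, those with several alignments included, and deposited these counts by gene symbol without normalization. The annotation and the use of strand are not given in the sources used here. Of 23282 rows, 44 repeat one of 35 symbols and 5134 hold no count. Counts were analysed with R 4.3.3, edgeR 4.0.16, limma 3.58.1 and DESeq2 1.42.0. The default filter of edgeR left 12425 genes, TMM factors scaled the libraries, and 1 quasi-likelihood model with 4 groups was fitted (square root of the common dispersion 0.132). Adjusted p-values were Benjamini-Hochberg over all tested genes, and SE was the log2 fold change divided by the square root of F. A level of 3 counts equals 0.169 to 0.234 CPM, for counting error only. On simulated counts for TGF-β1 in NC cells, 38.0% of genes changed 1.5-fold and 83.5% changed 2-fold were found. The simulation called 79 and 172 genes, far fewer than the 1065 higher and 841 lower of the real comparison. These shares are therefore for another setting and need not hold for the members. The members, lists and tests were chosen with earlier results of these data known. Members that passed in any comparison are given per library, and at most 3 genes per other list and comparison are named (4 for fatty acid oxidation in siPdcd5 cells), those that passed with the largest changes. A gene under this rule is not reported here. Alternatives tried were DESeq2, quantile normalization followed by limma-trend, scaling by upper quartiles, other filters on low counts, the replicate number as a block, only the 6 libraries compared, and each library left out.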

Additional observations from a re-analysis of the deposited data

Results flagged for a closer look

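Sqle, squalene epoxidase, is picked out because the knockdown libraries lay on opposite sides of their controls in the 2 conditions. All 3 siPdcd5 libraries (114, 113 and 111 CPM) lay below all 3 NC libraries (157, 132 and 134 CPM), and all 3 siPdcd5 + TGF-β1 libraries (155.3, 159 and 166 CPM) lay above all 3 NC + TGF-β1 libraries (149.7, 150.1 and 155.0 CPM). The knockdown effects were −0.32 without and 0.08 with TGF-β1 on the log2 scale (95% intervals −0.50 to −0.14 and −0.10 to 0.26), the second with an unadjusted p of 0.367 in edgeR and a gap between the nearest libraries of 155.0 to 155.3 CPM. They differed by 0.40 (SE 0.12). The test of that difference gave an unadjusted p of 0.00457 in edgeR and an adjusted p of 0.806, so it did not pass.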

How the results depend on the processing

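No call changed direction in any alternative. For TGF-β1 in NC cells the 9 members became 5 with only the 6 libraries compared, and 5 to 14 when 1 library was left out. The highest count came without replicate 2 of NC + TGF-β1 and the lowest without replicate 2 of NC. Cyp51, Nsdhl, Ebp, Sc5d and Scd2 passed under all 19 alternatives there, while Fdps and Hsd17b7 each missed under 15 and Msmo1 and Insig2 under 5. For TGF-β1 in siPdcd5 cells the 10 members became 7 to 15 over all alternatives, and 8 to 15 with 1 library left out. Hmgcs1 missed there under 5, Ebp under 3 and Scd2 under 2 of 19. For knockdown without TGF-β1 the count of 0 became 4 with DESeq2, 1 without a filter on low counts, 1 with at least 10 counts in every library and 1 with only the 6 libraries compared, and was 0 to 3 with 1 library left out. It was 3 without replicate 2 of NC + TGF-β1 and 2 without replicate 1 of siPdcd5. For knockdown with TGF-β1 the 1 member, Abca1, was lost (0) with only the 6 libraries compared and with the replicate block, and the count was 0 to 1 with 1 library left out. It was lost without replicate 3 of NC and without any one siPdcd5 + TGF-β1 library. Its adjusted p ran from 4.6e-04 to 0.150. The cause of these moves was not tested. The difference between the responses stayed at 0 members throughout.

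Deviations of same-numbered libraries from their group means had correlations from −0.32 to 0.17, under 0.1 for at least 1 pair in each comparison. With 3 libraries per group these correlations cannot decide whether the numbers pair the libraries. With the replicate block the counts were 7 in NC, 10 in siPdcd5 cells and 0 for knockdown without TGF-β1, with TGF-β1 and for the difference. At 3 libraries per group and these depths, changes as small as most of those reported may be found only in part.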
